A study of Mus musculus with 2 samples.

Results

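The neurotrophin system was followed in the subventricular zone (SVZ) and the cortex of the mouse brain at embryonic day 16.5. It was represented by 6 genes chosen by symbol out of the 24411 genes counted: the ligands *Bdnf* and *Ntf3*, the tyrosine kinase receptors *Ntrk2* and *Ntrk3*, and the receptors *Ngfr* and *Sort1*. All 6 were measured, and each averaged 1 CPM or more (reads of a gene per 1000000 gene-assigned reads) over the libraries. The tissue was fresh-frozen embryonic brain, and the labels give no treatment, genotype, strain, sex or number of embryos. Areas were cut from stained sections by laser capture microdissection (LCM), in which a laser frees chosen pieces of tissue under a microscope, and their RNA was sequenced in bulk. The comparison asks how expression differs between the germinal SVZ and the cortex, with 1 library for each area. No difference below therefore has a replicate check, and no test between the areas was made.

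Neurotrophins are secreted growth factors made as precursors and cut into mature proteins. Mature BDNF binds TrkB, encoded by *Ntrk2*, and mature NT-3 binds TrkC, encoded by *Ntrk3*. Both receptors signal through the Ras-Erk, PI3K-Akt and phospholipase C pathways. The low-affinity receptor encoded by *Ngfr* binds all neurotrophins and, together with sortilin, encoded by *Sort1*, binds their uncut precursors. In the developing cortex these factors are known for roles in the survival, migration and maturation of neurons.

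The SVZ library held 51435667 gene-assigned reads and the cortex library 22050693, so that 1 read was worth 0.0194 CPM and 0.0454 CPM respectively. A count of 0 allowed up to 3 reads, equal to 0.0583 CPM (SVZ) and 0.136 CPM (cortex). Ranges in brackets are exact 95% intervals. They describe error in the counting of reads alone, with 1 library per area. PCR copies cannot be recognised in reads that carry no molecular identifier, so the intervals may be too narrow for counted molecules. For 12738 genes the mean was 1 CPM or more, and these are called expressed genes below. Among them, the interval of the ratio excluded equal CPM for 86.8%, so an interval away from equality was the rule between these libraries. The labelled areas carried their defining markers. All 14 apical progenitor genes and all 8 intermediate progenitor genes had the higher CPM in SVZ, and 12 of 13 cortical neuron genes had the higher CPM in cortex, with *Slc17a6* as the exception.

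Of the 6 genes, 4 were at least 2-fold higher in cortex, namely *Ntf3*, *Ngfr*, *Bdnf* and *Ntrk3*, and 0 were at least 2-fold higher in SVZ. Among all expressed genes, 15.6% were at least 2-fold higher in cortex and 20.0% in SVZ. Past 4-fold stood 2 of the 6, *Ntf3* and *Ngfr*, both on the cortex side, against 7.01% of expressed genes on that side and 10.2% on the other. Of the 4 genes averaging 10 CPM or more, *Ntf3* and *Ntrk3* were past 2-fold towards cortex, where 12.3% of genes so selected lay, with 14.9% towards SVZ. *Ntf3* passed both filters, and *Ngfr* the filter of 1 CPM, only through their cortex reads. The side on which these genes were counted was therefore fixed by their passing. *Sort1* was moderately higher in cortex, and *Ntrk2* had nearly the same CPM in both. The genes are few and were chosen with earlier results known, so the count describes them and is not a test. In bulk samples, fewer cells of a type and less RNA per cell cannot be told apart.

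**Figure D1:**
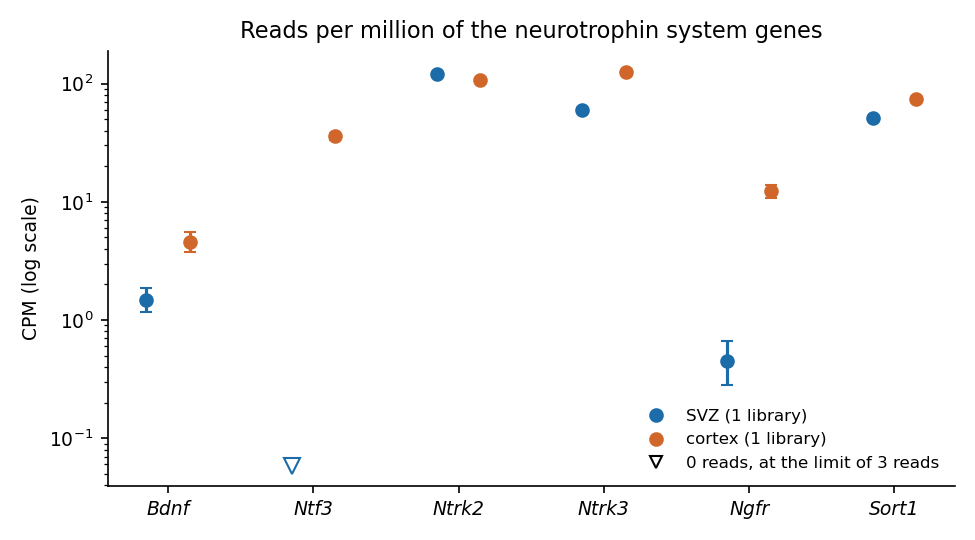
CPM of the 6 genes on a log axis, with the SVZ library in blue and the cortex library in orange, 1 library each. Bars are exact 95% counting intervals, hidden by the point where narrow, and the open triangle marks the limit of 0.0583 CPM for *Ntf3*, which had 0 reads in SVZ. *Ntrk2* stood at 121 and 107 CPM, while *Ngfr* stood at 0.447 and 12.2 CPM.

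The largest difference among the 6 was that of the ligand gene *Ntf3* (ENSMUSG00000049107.13, GRCm38 chromosome 6, 126101412 to 126166910, minus strand). It had 0 reads in SVZ and 793 reads, or 36.0 CPM, in cortex. At equal CPM the SVZ library would have held 1850 reads. With 0 set at the floor of 3 reads, *Ntf3* was 617-fold higher in cortex, called a bound of -9.27 on the log2 ratio (SVZ over cortex). The exact interval allowed ratios down to 500-fold and none below. The cortex reads were divided between the strands as 375 and 418, and the SVZ library had 0 on either strand. A count of 0 in SVZ was rare: it occurred for 0.604% of expressed genes. Among the 5238 genes with at least as many cortex reads as *Ntf3*, 4 (0.0764%) had 0 reads in SVZ, *Ntf3* included. *Ntf3* was thus not detectable in SVZ at this depth, and it was well read in cortex.

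The other ligand gene, *Bdnf* (ENSMUSG00000048482.14, chromosome 2, 109674700 to 109727007, plus strand), was read at a low level in both areas. It had 76 reads in SVZ and 101 in cortex, or 1.48 and 4.58 CPM. The CPM was 3.10-fold higher in cortex (2.28 to 4.23), a log2 ratio of -1.63 (-2.08 to -1.19). Of all expressed genes, 9.36% had a lower log2 ratio. In raw reads *Bdnf* was thus of similar size in the libraries, and the difference appeared once the deeper SVZ library was scaled. The ligand reads therefore differed in make-up. *Bdnf* gave 100% of the 76 ligand reads in SVZ (95.3% to 100%), and 11.3% of 894 in cortex (9.30% to 13.6%). The lower end of the exact interval of the odds ratio, which does not depend on library scaling, was 7.26 on the log2 scale.

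Upstream sequences are shown for the genes with the largest differences, *Ntf3* and *Ngfr*, and for 1 of 7 *Bdnf* starts. That *Bdnf* start was picked after the matches were seen. Of the 7 windows, only this 1 held a half-site of the element bound by the activity-regulated factor CREB. They are RefSeq sequences on GRCm38.p6, read 5′ to 3′ on the gene's own strand and cut where an annotated exon begins. Capitals mark the GC box GGGCGG and the cyclic AMP response element (CRE) half-site TGACG on either strand.
Ntf3 chr6:126164961-126165210 minus strand: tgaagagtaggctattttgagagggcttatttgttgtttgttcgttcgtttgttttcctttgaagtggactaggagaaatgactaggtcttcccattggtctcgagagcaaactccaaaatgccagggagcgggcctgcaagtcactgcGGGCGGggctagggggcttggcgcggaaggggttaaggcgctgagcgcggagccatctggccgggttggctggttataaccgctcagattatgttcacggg
Ngfr chr11:95587736-95587948 minus strand: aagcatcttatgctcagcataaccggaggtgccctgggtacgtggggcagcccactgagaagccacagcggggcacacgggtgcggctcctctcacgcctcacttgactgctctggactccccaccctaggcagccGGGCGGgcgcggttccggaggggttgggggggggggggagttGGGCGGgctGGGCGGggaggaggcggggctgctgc
Bdnf chr2:109692186-109692435 plus strand: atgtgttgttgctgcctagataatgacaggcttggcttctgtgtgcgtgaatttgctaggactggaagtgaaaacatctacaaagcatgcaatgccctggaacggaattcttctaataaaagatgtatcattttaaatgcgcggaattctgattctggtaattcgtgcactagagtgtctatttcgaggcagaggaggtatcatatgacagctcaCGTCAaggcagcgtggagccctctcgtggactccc
The *Ntf3* window of 250 bases held 1 GC box and the *Ngfr* window of 213 bases held 3. GC boxes were found in 32.7% of 32851 promoter windows of 250 bases and in 27.4% of those cut like the *Ngfr* window. The *Bdnf* window held 1 CRE half-site, which 17.8% of promoter windows held. That share is for a single window, whereas 7 *Bdnf* windows were searched. The complete CRE TGACGTCA and the TATA box TATAAA were in 0 of the 3 windows shown, against 1.55% and 12.4% of promoter windows of 250 bases. The E-box CANNTG occurred 1 time in each of the 3 windows and in 66.2% of promoter windows of 250 bases. These matches describe the letters and are not evidence of binding. Of the 6 genes, 4 had RefSeq starts, with 7 for *Bdnf*, 2 for *Ntf3* and 1 each for *Ngfr* and *Ntrk2*. The window of the other *Ntf3* start was too short after cutting and is not shown. *Ntrk3* and *Sort1* were not matched.

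Without regard to gene length, the tyrosine kinase receptor genes had the most reads of the 6 genes. Their ratios between the areas differed from each other. *Ntrk2* (ENSMUSG00000055254.15, chromosome 13, 58806569 to 59133970, plus strand), the gene of the BDNF receptor TrkB, had 6214 reads in SVZ and 2358 in cortex. These were 121 CPM (118 to 124) and 107 CPM (103 to 111). The SVZ CPM was 1.13-fold higher (1.08 to 1.19), a log2 ratio of 0.18 (0.11 to 0.25). That lay close to the median log2 ratio of all expressed genes, 0.11, and 52.8% of these genes had a lower ratio. Under the other scalings of the libraries the log2 ratio of *Ntrk2* stayed above 0 and was lowest at 0.08. *Ntrk2* was therefore at an average position between these libraries.

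*Ntrk3* (ENSMUSG00000059146.12, chromosome 7, 78175959 to 78738012, minus strand), the gene of the NT-3 receptor TrkC, had 3075 reads in SVZ and 2743 in cortex. These were 59.8 CPM (57.7 to 61.9) and 124 CPM (120 to 129). The CPM was 2.08-fold higher in cortex (1.98 to 2.19), a log2 ratio of -1.06 (-1.13 to -0.98), with 14.8% of genes lower. Its interval crossed the 2-fold line, so a difference of 2-fold or more was not resolved for this gene. Receptor and ligand genes were thus both higher in cortex but differed in SVZ. *Ntrk3* was read well in SVZ, where *Ntf3* had 0 reads.

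The balance between the Trk receptor genes differed between the areas. *Ntrk2* gave 66.9% of the 9289 *Ntrk2* and *Ntrk3* reads in SVZ (65.9% to 67.9%), but 46.2% of 5101 in cortex (44.9% to 47.6%). The log2 odds ratio was 1.23 (1.13 to 1.33), a value that does not depend on library scaling. These counts are per gene and do not separate receptor forms. GENCODE M21 gives *Ntrk2* 7 coding transcripts, with proteins of 466 to 821 residues. It gives *Ntrk3* 6, with coding sequences for 82 to 864 residues. The lengths of 82 and 86 residues come from short transcripts of 423 and 426 bases, and the next length is 612 residues. The coding sequence for 82 residues has 248 bases, which is not a whole number of codons, so it is incomplete. The shorter forms of TrkB and TrkC that are best known lack the kinase domain, so the reads do not show how much full-length receptor RNA either area held.

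**Figure D2:**
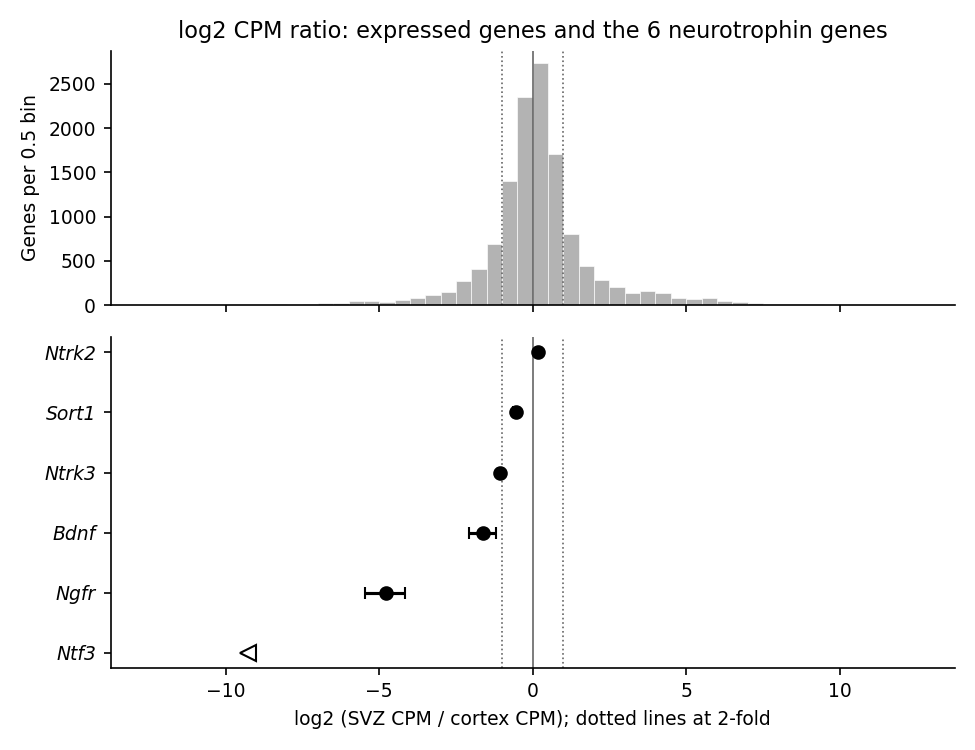
Top, number of expressed genes in bins of the log2 ratio (SVZ over cortex, in CPM). Bottom, the 6 genes with exact 95% counting intervals, and *Ntf3* as an open triangle at its bound of -9.27. *Ntrk2* sits at 0.18 near the middle of all genes, while *Ngfr* at -4.78 and *Ntf3* lie far out on the cortex side.

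Among the receptors without a kinase, *Ngfr* (ENSMUSG00000000120.6, chromosome 11, 95568818 to 95587735, minus strand) differed most. It had 23 reads in SVZ and 270 in cortex, or 0.447 CPM (0.283 to 0.671) and 12.2 CPM (10.8 to 13.8). The CPM was 27.4-fold higher in cortex (17.9 to 43.9), a log2 ratio of -4.78 (-5.46 to -4.16). Only 1.499% of expressed genes had a lower ratio. Relative to the Trk receptors, *Ngfr* gave 0.247% of the *Ngfr*, *Ntrk2* and *Ntrk3* reads in SVZ (0.157% to 0.370%) and 5.03% in cortex (4.46% to 5.65%). The receptor gene was therefore higher in the cortex against the Trk genes as well, with a log2 odds ratio of -4.42 (-5.10 to -3.80).

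*Sort1* (ENSMUSG00000068747.14, chromosome 3, 108284082 to 108361511, plus strand) encodes sortilin, a sorting receptor of the Golgi and endosomes. It had 2623 reads in SVZ and 1631 in cortex, or 51.0 CPM (49.1 to 53.0) and 74.0 CPM (70.4 to 77.6). The CPM was 1.45-fold higher in cortex (1.36 to 1.54), a log2 ratio of -0.54 (-0.63 to -0.45), and 25.7% of genes had a lower ratio. *Sort1* was thus well read in both areas, unlike its partner *Ngfr*. Of the *Sort1* and *Ngfr* reads, *Sort1* gave 99.1% in SVZ (98.7% to 99.4%) and 85.8% in cortex (84.1% to 87.3%).

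Levels of different genes were compared per kilobase of annotated exon. In the SVZ library, *Sort1* (6.74 CPM per kb) and *Ntrk2* (6.26) led, followed by *Ntrk3* (1.98), *Bdnf* (0.238) and *Ngfr* (0.130), with *Ntf3* at 0. In the cortex library, *Ntf3* led at 20.98 CPM per kb, ahead of *Sort1* (9.77), *Ntrk2* (5.54), *Ntrk3* (4.12), *Ngfr* (3.55) and *Bdnf* (0.737). Per length, *Ntf3* was thus last in SVZ and first in cortex. In the SVZ library the intervals of *Sort1* (6.48 to 7.00) and *Ntrk2* (6.11 to 6.42) lay close together, and those of *Bdnf* (0.187 to 0.297) and *Ngfr* (0.0823 to 0.195) overlapped. In the cortex library those of *Ntrk3* (3.97 to 4.28) and *Ngfr* (3.14 to 4.00) overlapped slightly. Overlap of separate intervals does not settle an order, and the order of these genes was not tested. By the longest transcript, *Ntrk3* and *Ngfr* stood at 6.31 and 3.55 CPM per kb in the cortex. The order also depends on the length used. With the longest annotated transcript in place of all exons, *Ntrk2* stood above *Sort1* in both libraries, at 13.8 and 7.46 CPM per kb in the SVZ and at 12.2 and 10.8 in the cortex.

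**Figure D3:**
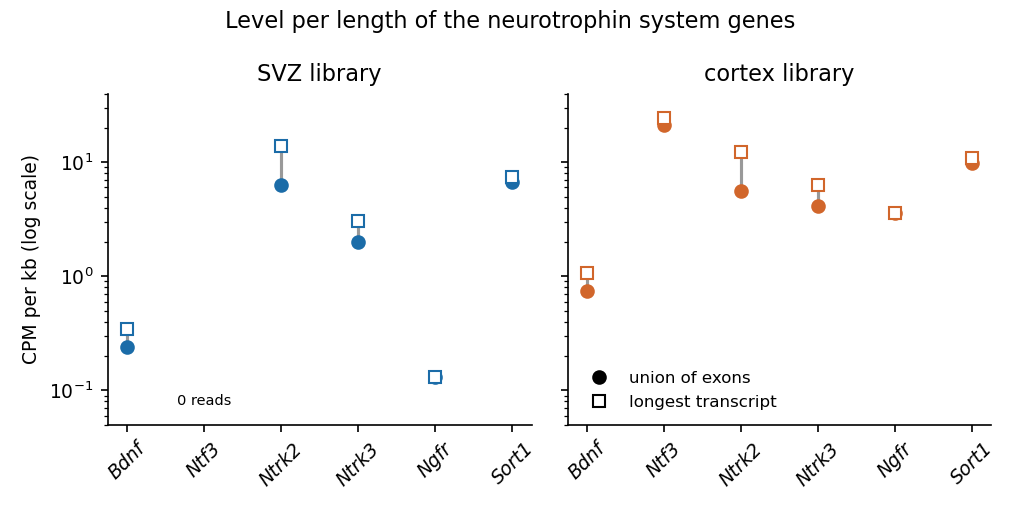
CPM per kb of the 6 genes on a log axis, with the SVZ library on the left and the cortex library on the right. Filled circles divide by the union of annotated exons and open squares by the longest annotated transcript. *Ntf3* had 0 reads in SVZ and led the cortex library at 20.98 CPM per kb by the union of exons, and for *Ngfr*, with 1 annotated transcript, the square covers the circle.

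*Ntf5*, the gene of the further TrkB ligand NT-4, had 0 reads in both libraries by the unstranded count.

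Genes that act around the receptors were then described in lists, each by the number at least 2-fold apart among expressed genes. In the list of sortilin family genes and partners of the *Ngfr* receptor, 3 of 14 were higher in SVZ and 2 in cortex, with a median log2 ratio of -0.21. *Lingo1* and *Rtn4r*, whose products form a receptor complex for myelin inhibitors with the *Ngfr* receptor, were 37.4-fold and 9.28-fold higher in cortex. *Lingo1* had 39 and 626 reads, and *Rtn4r* 49 and 195, in SVZ and cortex respectively. *Sorcs1*, a relative of sortilin, was 4.51-fold higher in SVZ, with 1209 and 115 reads. The other sortilin relatives past 2-fold, *Sorcs3* (2.97-fold) and *Sorl1* (2.64-fold), were higher in SVZ as well. Genes introduced as others past 2-fold, here and below, were named after their values were seen. The adaptor genes *Maged1* (log2 ratio -0.33) and *Ngfrap1* (0.21) were the most strongly read of the list and lay within 2-fold.

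Of 43 Trk adaptor and kinase genes of the shared signalling pathways, 3 were at least 2-fold higher in SVZ and 10 in cortex, with a median log2 ratio of -0.38. Within 2-fold lay 30 of the 43, beside 8199 of all 12738 expressed genes. *Nras*, the most strongly read, encodes a Ras protein and was nearly equal, with a log2 ratio of 0.07. The adaptor genes *Sh2b2* and *Shc2* were 6.52-fold and 5.10-fold higher in cortex. *Irs1*, which encodes an adaptor of insulin receptor signalling also used by Trk receptors, was 4.29-fold higher in SVZ, with 12834 and 1284 reads. The others past 2-fold on that side were the adaptor genes *Shc3* (2.69-fold) and *Gab1* (2.61-fold).

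Among 18 genes of Trk partners and modulators, 1 was at least 2-fold higher in SVZ and 6 in cortex, with a median log2 ratio of -0.48. *Islr2*, whose product binds Trk receptors in growing axons, was 43.5-fold higher in cortex, with 117 and 2180 reads. *Slitrk5*, a TrkB partner, was 6.18-fold higher and *Ptprd*, a receptor tyrosine phosphatase gene, 4.12-fold higher in cortex. The ubiquitin ligase genes *Nedd4* (log2 ratio 0.86) and *Nedd4l* (-0.38) were the most strongly read of the list. The other past 2-fold that was higher in SVZ was *Adora2a* (3.25-fold), an adenosine receptor gene.

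For the cutting of precursors, 0 of 10 genes were at least 2-fold higher in SVZ and 5 were higher in cortex, with a median log2 ratio of -0.96. The proprotein convertase genes *Pcsk2*, *Pcsk5* and *Pcsk6* were 14.4-fold, 9.57-fold and 3.78-fold higher in cortex. *Serpini1*, the gene of a neuronal inhibitor of tissue plasminogen activator, was 2.07-fold higher there and the other past 2-fold, the protease gene *Mmp9*, 2.52-fold, while *Cpe*, which encodes carboxypeptidase E, had a log2 ratio of -0.11. In the list of transport of BDNF and its receptors, 2 of 21 genes were higher in SVZ and 7 in cortex, with a median of -0.46. *Syt4* and *Syt6*, of the synaptotagmin family, were 9.46-fold and 11.5-fold higher in cortex. *Syt6* depended on the count column, since the strand columns summed to 882 reads in SVZ in place of 410. *Cadps2*, whose product promotes release of BDNF vesicles, was 13.4-fold higher in SVZ, with 500 and 16 reads, and the other past 2-fold on that side was *Hap1* (6.71-fold), of the huntingtin-associated protein. *Dpysl2*, the most strongly read of the list, was 3.45-fold higher in cortex.

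Of 18 regulators of *Bdnf* transcription, 2 were at least 2-fold higher in SVZ and 3 in cortex, with a median log2 ratio of -0.10. *Mef2c*, a transcription factor gene of maturing neurons, was 33.5-fold higher in cortex, with 3742 and 53686 reads, and *Bhlhe41* was 12.4-fold higher. *Nfatc4* was 8.32-fold higher in SVZ, with 291 and 15 reads, and *Tcf4*, the most strongly read, had a log2 ratio of 0.61. The others past 2-fold were *Rest*, of a repressor of neuronal genes, 2.35-fold higher in SVZ, and *Crtc1*, of a CREB coactivator, 2.53-fold higher in cortex. Of 14 genes known to respond to BDNF, 9 were expressed genes, and of these 1 was higher in SVZ and 8 in cortex, with a median of -1.58. Few of them averaged 10 CPM or more, and the median of those few, -2.59, was the value of *Homer1*. *Fos*, an immediate early gene that averaged under 1 CPM and is named after its values were seen, had 39 and 0 reads. With 0 set at 3 reads, *Fos* was 5.57-fold higher in SVZ, a log2 ratio of 2.48 whose exact interval began at 2.11. *Npy*, *Dusp6* and *Homer1* were 26.6-fold, 20.4-fold and 6.02-fold higher in cortex, and *Junb*, with 6 and 60 reads, 23.3-fold higher. The other past 2-fold towards SVZ was *Nrn1*, of the secreted protein neuritin, with 7457 and 444 reads (7.20-fold). These genes have other inputs too, and their counts do not measure Trk signalling. Over all lists together, GDNF family genes included, 13 of 136 genes were at least 2-fold higher in SVZ and 44 in cortex, with a median of -0.47. These shares were 9.56% and 32.4%, beside 20.0% and 15.6% of all expressed genes, whose median was 0.11.

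**Figure D4:**
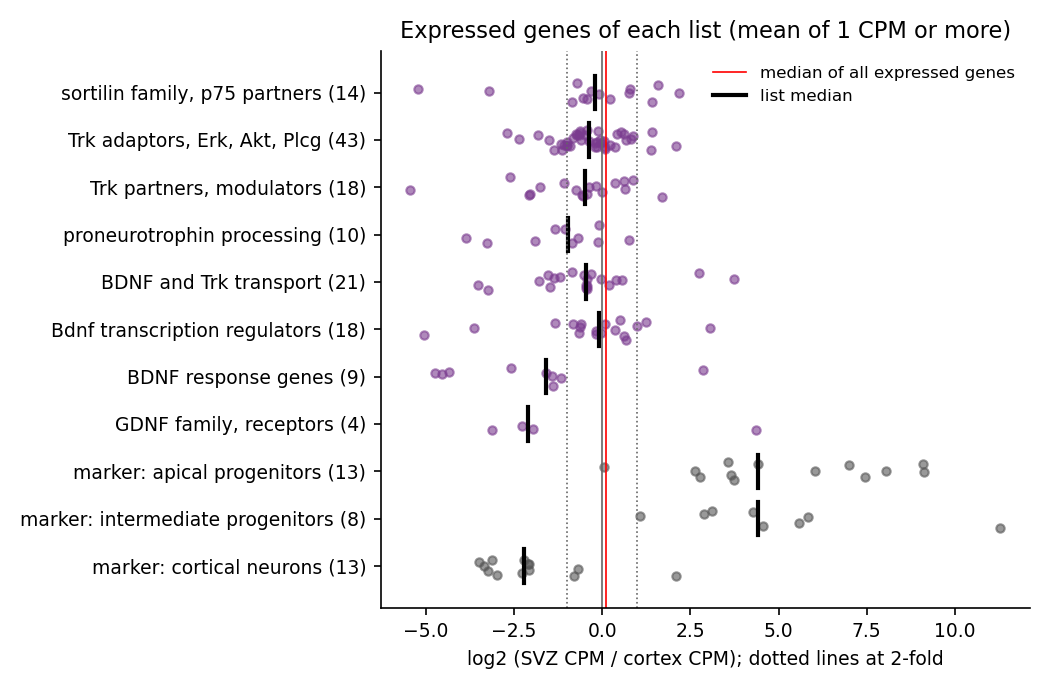
Each point is an expressed gene, placed by its log2 ratio (SVZ over cortex, in CPM), with the number of genes in brackets. Black bars are list medians and the red line is the median of all such genes, 0.11. The pathway lists centre between -2.11 and -0.10, the progenitor markers at 4.43 and 4.41, and the cortical neuron markers at -2.21.

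Marker lists of the cell types in the pieces differed between the libraries in both directions. The 13 cortical neuron genes summed to 3203 CPM in SVZ and 11188 in cortex, a log2 ratio of -1.80 for the sum and -2.21 for the median gene. For the other cell types, the Cajal-Retzius list summed to 3.81 CPM in SVZ and 30.5 in cortex, with 3 of 6 genes higher in cortex. It had 1 gene higher in SVZ, and *Lhx1* and *Lhx5* had 0 reads in both. Without *Reln* (2.47 and 27.7 CPM), the list summed to 1.34 and 2.86 CPM, the same direction. The subplate list summed to 34.0 and 52.5 CPM, with 4 of 9 genes higher in cortex, 4 higher in SVZ and *Cplx3* at 0 reads in both. Without *Nr4a2* (5.39 and 30.2 CPM), it summed to 28.6 and 22.3 CPM, the other direction. Vessel and mural cell genes summed to 153 and 113 CPM, with 3 of 10 higher in cortex. Meningeal genes summed to 19.4 and 10.2 CPM, with 4 of 10 higher in cortex, 5 higher in SVZ and *Aldh1a2* at 0 reads in both. Without *Ptgds* (12.1 and 0 CPM), they summed to 7.33 and 10.2 CPM, also the other direction. Interneuron genes summed to 194 and 169 CPM, oligodendrocyte precursor genes to 13.2 and 14.5, microglial genes to 95.4 and 30.0, erythroid genes to 20.4 and 10.9 and choroid plexus genes to 247 and 0.907. The part of these cell types in the differences of the neurotrophin genes was not tested.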

How the data were processed

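The 2 libraries, 1 per area, were grouped by the area named in the labels. The authors removed adapters with cutadapt 4.1, mapped read 1 alone to mm10 with STAR 2.7.9a and deposited its raw counts per gene, with 3 columns per library, the first ignoring strand and the others counting each strand. RNA input was amplified by a low-input kit, and removal of duplicates is not given in the sources used here. Reads mapping to several places or to more than 1 gene were not counted. The unstranded counts were used here, and CPM was taken on their sum over genes, without the 4 status lines. Genes took 59.0% of SVZ and 59.1% of cortex reads. The counts of a merged table deposited by the authors were used only for checking. Its scaled values, fold change and log10 ratio are the authors' own comparison and were not used.

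The measure was the log2 ratio of SVZ to cortex CPM without a pseudocount, with an exact Clopper-Pearson 95% interval. A count of 0 was set at 3 reads and the ratio called a bound. With 3 or fewer reads in each library, no ratio was formed. Expressed genes, those averaging 1 CPM or more, were counted when 2-fold or more apart. Odds ratios have exact conditional intervals. With 1 library per area no p-value was computed. The 6 genes and all lists were chosen with earlier results of these data known. In each list the 3 genes with the largest difference by the interval end nearer to 0 and the 2 with the highest mean CPM are named, besides genes named after their values were seen (others past 2-fold, marker genes with 0 reads). Positions, exons and lengths are from GENCODE M21 on GRCm38, the build of mm10, matched by symbol. The annotation used for counting may differ. Alternatives were DESeq2 1.42.0 size factors, TMM and upper-quartile factors (edgeR 4.0.16), strand column sums, totals that leave out each library's 10 most counted genes, thinning, a pseudocount of 1 CPM, and other thresholds. The work was done with scipy 1.17.1, pandas 2.3.3 and numpy 2.4.6 in Python 3.11.15, with R 4.3.3 for the factors and matplotlib 3.10.9 for plots. The procedure was tested on simulated data. Some genes that the naming rule selects are not reported here.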

Additional observations from a re-analysis of the deposited data

How the results depend on the processing

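No paired analysis was possible because there was only 1 library from either area, nor could a replicate be left out. The log2 ratio of each of the 6 genes kept its sign under the 7 alternatives run. TMM factors, DESeq2 size factors and upper-quartile factors, which shifted the median of all expressed genes by -0.0930, -0.0933 and -0.0988, gave 0.0831, 0.0828 and 0.0772 for *Ntrk2*, -1.15, -1.15 and -1.16 for *Ntrk3* and -0.63, -0.63 and -0.64 for *Sort1*. A pseudocount of 1 CPM, which draws low values together, gave -1.17 for *Bdnf*, -5.21 for *Ntf3* and -3.19 for *Ngfr*. With the SVZ library thinned to the cortex total, the bound of *Ntf3* was -8.05, since its floor rests on depth. The strand column sums left all counts of the 6 genes as they were. The 4 genes past 2-fold towards cortex became 2 at 4-fold, and also 2 among genes averaging 10 CPM or more. That filter is passed by 4 of the 6, by *Ntf3* only through its cortex reads. Over the pathway lists the 13 genes past 2-fold towards SVZ became 7 at 4-fold and 6 among genes averaging 10 CPM or more, and the 44 towards cortex became 20 at 4-fold. Per kb of the longest transcript, the SVZ and cortex levels were 0.346 and 1.07 CPM for *Bdnf*, 13.8 and 12.2 for *Ntrk2*, 3.03 and 6.31 for *Ntrk3*, 7.46 and 10.8 for *Sort1*, and 24.2 for *Ntf3* in the cortex. The median log2 ratio of the BDNF response genes went from -1.58 to -2.59 among genes averaging 10 CPM or more, where few genes were left. In an alternative chosen after seeing the data, the gene with the largest CPM difference was left out of each of the 12 marker sums. The log2 ratio of the sum then changed sign for the subplate list (-0.62 to 0.36) and the meningeal list (0.94 to -0.47). Depth limits the SVZ values of *Ntf3*, *Ngfr* and *Bdnf* most, at 0, 23 and 76 reads.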

Other observations

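The GDNF family, another group of neuronal growth factors and receptors, was described in the same way. Of its 11 genes, 4 averaged 1 CPM or more. Past 2-fold, 1 of these lay towards SVZ and 3 towards cortex, with a median log2 ratio of -2.11. *Gfra1*, which encodes the GDNF co-receptor, had 145 SVZ reads and 3 from cortex, for a log2 ratio of 4.37 (2.80 to 6.67). *Gfra2*, of the neurturin co-receptor, had 29 and 108, for -3.12 (-3.76 to -2.52). *Gfra4* had 340 and 567 reads (-1.96), and *Ncam1*, the neural cell adhesion molecule gene, 43548 and 89552 (-2.26). The ligand gene *Gdnf* had 0 reads in both libraries.

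For each of the 6 neurotrophin genes, the 2 genes with the nearest CPM in both libraries were found by Euclidean distance in log2 CPM, a likeness over 2 libraries only. *Ntf3* was nearest to *Ntsr1*, with 0 and 835 reads (distance 0.074), and to *Nr4a3*, with 0 and 704 (0.172). *Ngfr* was nearest to *P2rx2*, with 21 and 325 reads (0.298), and *Scn9a*, with 30 and 294 (0.403). *Bdnf* was nearest to *Ehbp1l1* and *Spry1*, *Ntrk2* to *Abcf2* and *Ctr9*, *Ntrk3* to *Fsd1* and *Btbd10*, and *Sort1* to *Cadps* and *Fbxo45*, at distances of 0.014 to 0.069.

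The authors' deposited table of the comparison listed 5 of the 6 neurotrophin genes, with counts equal to those of each library, and did not list *Ntf3*. GENCODE M21 gives 2 genes whose exons overlap those of these 6 on the opposite strand, *Gm45346* at *Bdnf* and *Gm12523* at *Sort1*. Of these, 0 were in the count table.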
